A study of Mus musculus with 6 samples.

Results

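The genes described here are 10 CC and CXC chemokines of the mouse: Ccl2, Ccl3, Ccl4, Ccl6, Ccl9, Ccl17, Ccl22, Cxcl2, Cxcl10 and Pf4. They were chosen by gene symbol from a table of 15139 genes, and all 10 had a row in it. Messenger RNA had been sequenced from bone marrow cells of mice lacking Dnmt3a, a de novo DNA methyltransferase, and of wild-type (WT) mice. The knockout (KO) group carried Mx-Cre with Dnmt3a-/-, and the WT group carried Mx-Cre with Dnmt3a+/+, so the recombinase was present in both. In some label fields the KO group is called a knockdown. Both groups were cultured for 1 week in RPMI with 10% fetal bovine serum, 50 ng/ml of SCF (stem cell factor, the ligand of KIT) and 10 ng/ml of IL3 (interleukin 3), which together favour mast cells and immature myeloid cells. There were 2 KO libraries analysed, replicates 2 and 3, and 3 WT libraries, while KO replicate 1 was not analysed here. The sources used here give no age of the mice and do not say how Cre was induced or whether marrow was pooled. Levels are in FPKM, a count of fragments scaled by transcript length and library size, which allows different genes to be compared, but the sequencing depth is unknown.

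Chemokines are small secreted proteins that guide leukocytes along concentration gradients through receptors coupled to G proteins. Their names follow the first conserved cysteines, which are adjacent in CC chemokines and parted by 1 residue in CXC chemokines. Monocytes, macrophages, dendritic cells, mast cells and neutrophils all make them, and many are induced within hours by NF-kappaB or by interferon. Most mouse genes of the family lie in clusters, the CC genes mainly on chromosome 11, a CXC cluster on chromosome 5 and a small group on chromosome 8.

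Dnmt3a itself was at 2.58 and 3.42 FPKM in KO replicates 2 and 3, against 6.68, 9.99 and 9.04 FPKM in WT replicates 1, 2 and 3 (log2 change -1.25 ± 0.17 SE; limma adjusted p = 0.00279). Here and below, a log2 change is KO over WT on the log2(FPKM + 1) scale, which understates the change of low genes, and a gene passed the test at a limma adjusted p under 0.05 over all 11365 tested genes. Of these, 2507 (22.1%) passed, 1032 higher (9.08% of tested genes) and 1475 lower (13%) in KO. Higher genes made up 41.2% of the calls, and 53.8% after upper-quartile scaling. The groups did not overlap for 51.1% of tested genes, with both KO libraries above every WT library for 20.4% and below for 30.8%. Sex was not balanced: by Xist and Ddx3y, WT replicates 2 and 3 were female, and WT replicate 1 and both KO libraries were male. A fit with sex as a covariate therefore sets the KO libraries against WT replicate 1 alone, and it called 1312 genes. Without WT replicate 2 there were 1598.

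The chemokines moved in both directions. Of the 10, 9 passed the filter on low values and were tested, all but Cxcl10, and 6 of the 9 passed the test (66.7%, against 22.1% of all tested genes). Ccl2 and Ccl4 rose, and Ccl9, Ccl17, Ccl22 and Pf4 fell. Ccl3, Ccl6 and Cxcl2 did not pass. Both KO libraries were above every WT library for 3 of the 9 and below for 4. The median log2 change of the 9 was -0.25, against -0.04 over all tested genes. With sex as a covariate 3 of the 9 passed: Ccl2, Ccl17 and Pf4.

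**Figure D1:**
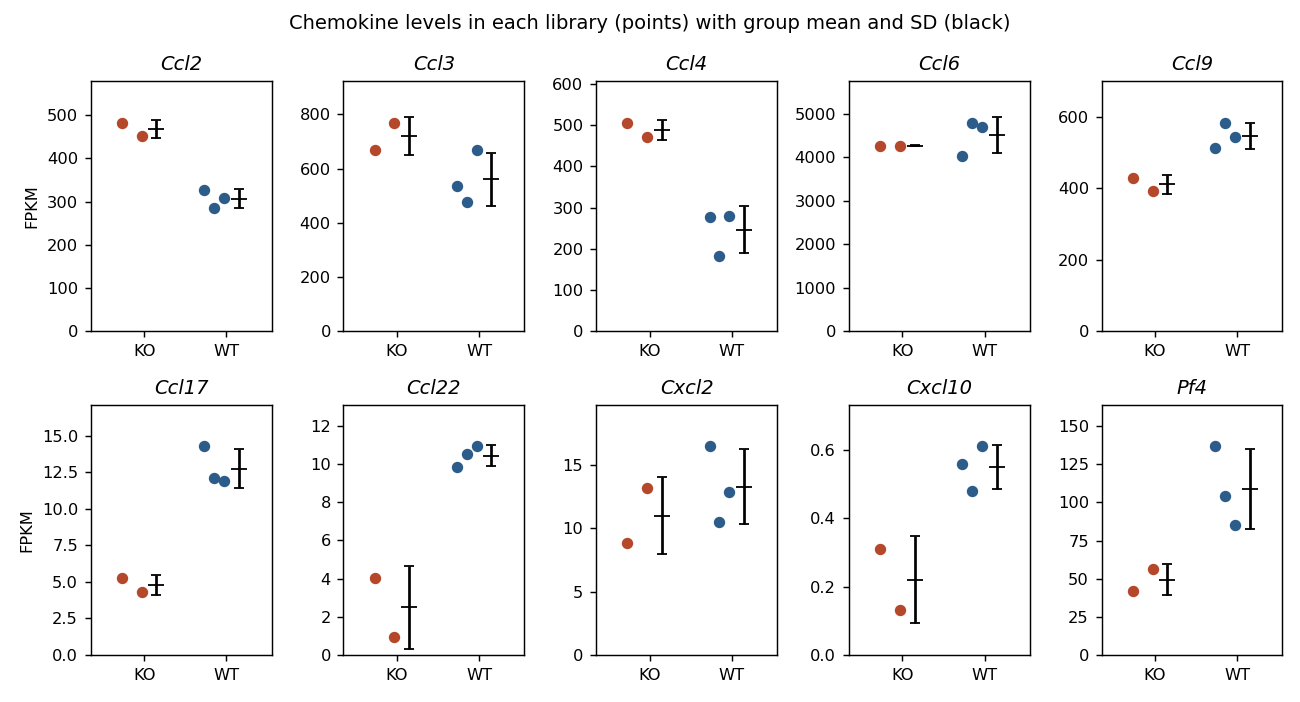
FPKM of each chemokine in each library (red, 2 KO libraries; blue, 3 WT libraries), with the group mean and SD in black and each vertical axis starting at 0. KO libraries lay above all WT libraries for Ccl2, Ccl3 and Ccl4, below them for Ccl9, Ccl17, Ccl22, Cxcl10 and Pf4, and overlapped them for Ccl6 and Cxcl2.

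Levels spanned a wide range within each library. In KO libraries the order of mean FPKM was Ccl6, Ccl3, Ccl4, Ccl2, Ccl9, Pf4, Cxcl2, Ccl17, Ccl22 and Cxcl10, and the neighbours whose ranges overlapped were Ccl4 and Ccl2. In WT libraries it was Ccl6, Ccl3, Ccl9, Ccl2, Ccl4, Pf4, Cxcl2, Ccl17, Ccl22 and Cxcl10, with overlapping ranges for Ccl3 and Ccl9 and for Cxcl2 and Ccl17. Ccl9 thus stood below Ccl4 and Ccl2 in KO libraries and above both in WT libraries. The 10 genes together held 1.06% and 1.15% of all FPKM in the KO libraries, against 0.97% to 1.13% in the WT libraries and these ranges overlapped. Ccl6 alone gave 66.5% and 66.3% of that sum in the KO libraries and 68.7% to 74.2% in the WT libraries. Without Ccl6 the summed level was 2149 and 2161 FPKM in KO replicates 2 and 3, against 1833, 1666 and 1923 FPKM in WT replicates 1, 2 and 3, with both KO libraries above every WT library.

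Ccl2, the main attractant of monocytes through the receptor CCR2, rose. It lies on chromosome 11 from 82035577 to 82037452 (GRCm38.p6, as are all positions here). Its level was 482 and 452 FPKM in KO replicates 2 and 3, against 327, 284 and 309 FPKM in WT replicates 1, 2 and 3. Both KO libraries were above every WT library, by a margin wider than the range within either genotype. The means were 467 ± 21.1 FPKM in KO (SD, n = 2) and 307 ± 21.4 FPKM in WT (SD, n = 3), and the log2 change was 0.61 ± 0.09 (SE; limma adjusted p = 0.00341). It passed under all 16 alternative settings, with log2 changes of 0.51 to 0.69. GENCODE places an antisense gene, Gm17268, across Ccl2, and the sources used here do not say whether the libraries kept strand, so the reads of both genes may have been mixed.

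Ccl4 (MIP-1 beta), which activated macrophages, lymphocytes and mast cells release, had the largest rise among the 10. It was at 506 and 471 FPKM in KO replicates 2 and 3, against 278, 181 and 280 FPKM in WT replicates 1, 2 and 3. WT replicate 2 was the lowest library, and the KO libraries were well above the other WT libraries too. The means were 488 ± 24.7 FPKM in KO (SD, n = 2) and 247 ± 56.4 FPKM in WT (SD, n = 3), and the log2 change was 1.01 ± 0.19 (SE; limma adjusted p = 0.00908). With sex as a covariate the log2 change was 0.81 and the call was lost (limma adjusted p = 0.0801).

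Ccl3 (MIP-1 alpha), a ligand of CCR1 that is often made together with Ccl4, did not pass the test. Its level was 670.2 and 769.5 FPKM in KO replicates 2 and 3, against 536, 478 and 667 FPKM in WT replicates 1, 2 and 3. The groups did not overlap, but KO replicate 2 and WT replicate 3 were nearly level. The log2 change was 0.37 ± 0.15 (SE; 95% interval 0.02 to 0.72; limma adjusted p = 0.122, and 0.0486 without WT replicate 3). Ccl3 (chromosome 11, 83647843 to 83649378, minus strand) and Ccl4 (83648624 to 83664683, plus strand) overlap by 755 bases in RefSeq's gene spans, so reads there may have been counted for either gene. In GENCODE they do not overlap.

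Ccl6 and Ccl9 are related mouse CC chemokines of myeloid cells that act through CCR1, and they lie next to each other on chromosome 11. Ccl6 (83587886 to 83593087) was the most abundant chemokine and ranked ninth of all genes in both KO libraries, and seventh to ninth in the WT libraries. It was at 4269 and 4260 FPKM in KO replicates 2 and 3, against 4028, 4793 and 4692 FPKM in WT replicates 1, 2 and 3. The KO values fell within the WT range, and the log2 change was -0.07 ± 0.12 (SE; 95% interval -0.37 to 0.22; limma adjusted p = 0.718). An antisense gene, E230016K23Rik, spans Ccl6 but had only 6.29 to 10.6 FPKM in any library.

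Ccl9 (83572917 to 83578636) fell modestly. It was at 431 and 393 FPKM in KO replicates 2 and 3, against 514, 584 and 544 FPKM in WT replicates 1, 2 and 3, with no overlap. The means were 412 ± 26.6 FPKM in KO (SD, n = 2) and 547 ± 35.4 FPKM in WT (SD, n = 3), and the log2 change was -0.41 ± 0.09 (SE; limma adjusted p = 0.0184). The call was lost with sex as a covariate (0.182) and without WT replicate 2 (0.0820), WT replicate 3 (0.0737) or KO replicate 3 (0.0533), with log2 changes of -0.32 to -0.41.

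Ccl17 and Ccl22 are the ligands of CCR4 made by dendritic cells and by macrophages exposed to interleukin 4. They had the steepest falls of the set in the main fit. That order depended on the libraries: without KO replicate 3 the log2 change was -1.32 for Pf4, -1.18 for Ccl22 and -1.13 for Ccl17. They lie on chromosome 8, Ccl22 from 94745684 to 94751388 and Ccl17 from 94809380 to 94812038, with Cx3cl1 between them. Ccl17 was at 5.27 and 4.31 FPKM in KO replicates 2 and 3, against 14.3, 12.1 and 11.9 FPKM in WT replicates 1, 2 and 3. The means were 4.79 ± 0.679 FPKM in KO (SD, n = 2) and 12.7 ± 1.33 FPKM in WT (SD, n = 3), and the log2 change was -1.25 ± 0.12 (SE; limma adjusted p = 0.000662). Both KO libraries were far below the lowest WT library, and Ccl17 passed under all 16 alternatives, with log2 changes of -1.40 to -1.13.

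Ccl22 was at 4.04 and 0.96 FPKM in KO replicates 2 and 3, against 9.87, 10.5 and 10.9 FPKM in WT replicates 1, 2 and 3. The WT libraries lay close together, while KO replicate 3 was far below KO replicate 2. The means were 2.5 ± 2.18 FPKM in KO (SD, n = 2) and 10.4 ± 0.536 FPKM in WT (SD, n = 3), and the log2 change was -1.86 ± 0.34 (SE; limma adjusted p = 0.00866). Without KO replicate 3 the log2 change was -1.18 (0.00386), and with sex as a covariate it was -1.79 and the call was lost (0.0586). Cx3cl1, which encodes the ligand of CX3CR1, was too low to be tested, at 0.12 and 0 FPKM in KO replicates 2 and 3, against 0.32, 0.33 and 0.42 FPKM in WT replicates 1, 2 and 3. Both KO values of Cx3cl1 were below every WT value; genes other than chemokines in this span were not examined.

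Pf4 (CXCL4, platelet factor 4), a CXC chemokine of platelet alpha granules that binds heparin and is also made by some macrophages, fell. Its gene is on chromosome 5 from 90772435 to 90773383. It was at 42.1 and 56.4 FPKM in KO replicates 2 and 3, against 137, 104 and 85.2 FPKM in WT replicates 1, 2 and 3. The highest KO library was below the lowest WT library, although the WT libraries spread widely. The means were 49.3 ± 10.1 FPKM in KO (SD, n = 2) and 109 ± 26.1 FPKM in WT (SD, n = 3), and the log2 change was -1.11 ± 0.20 (SE; limma adjusted p = 0.00836), and it passed under all 16 alternatives (-1.47 to -0.91).

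Cxcl2 (MIP-2), an attractant of neutrophils through CXCR2, did not pass. It was at 8.85 and 13.2 FPKM in KO replicates 2 and 3, against 16.5, 10.5 and 12.9 FPKM in WT replicates 1, 2 and 3. The groups overlapped, and the log2 change was -0.25 ± 0.21 (SE; 95% interval -0.74 to 0.23; limma adjusted p = 0.431). Cxcl2 (chromosome 5, 90903899 to 90905938) shares 5.84% of its stretches of 50 bases with its paralog Cxcl3, so some reads could be assigned to either. Ccl9 shared 1.97% of such stretches with other genes, and the other 8 chemokines shared none.

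Cxcl10 (IP-10), an interferon-induced attractant of T cells through CXCR3, was close to the limit of detection. It was at 0.31 and 0.13 FPKM in KO replicates 2 and 3, against 0.56, 0.48 and 0.61 FPKM in WT replicates 1, 2 and 3. Both KO libraries were below every WT library, but no library reached 1 FPKM, so the gene was not tested. Without the filter on low genes its log2 change was -0.35 ± 0.09 (SE; limma adjusted p = 0.0522). The gene (chromosome 5, 92346638 to 92348889, minus strand) lies within the span of Art3 on the other strand.

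The promoter sequences of these genes are of use because NF-kappaB, interferon and AP-1 elements are the classical inputs to chemokine transcription. RefSeq windows (GRCm38.p6) were at hand for 8 of the 10 genes, and the 250 bases before the table's start of each gene were searched on both strands. None was at hand for Ccl2 and Ccl4, so the search does not cover the genes of the set that were called higher. For Ccl17 that window (chr8:94810203-94810452, plus strand) lies inside the gene span given above, downstream of its first base. The motifs were the NF-kappaB consensus, the interferon-stimulated response element (GAAA, any 2 bases, GAAA) and the AP-1 site TGANTCA. They occurred in 7.25%, 2.98% and 6.75% of 32851 windows of the same length. NF-kappaB matches were found in Cxcl2, Cxcl10 and Ccl9, AP-1 matches in Cxcl10 and Ccl9, and the interferon element in Cxcl10. Capitals mark these matches in the windows of Cxcl2 (chr5:90903649-90903898, plus strand), Cxcl10 (chr5:92348890-92349139, minus strand) and Ccl9 (chr11:83578637-83578886, minus strand). The window of Ccl22 (chr8:94745434-94745683, plus strand), which had the steepest fall in the main fit, held no match. Neither did those of Ccl3, Ccl6, Ccl17 and Pf4. All are written 5′ to 3′.
Cxcl2: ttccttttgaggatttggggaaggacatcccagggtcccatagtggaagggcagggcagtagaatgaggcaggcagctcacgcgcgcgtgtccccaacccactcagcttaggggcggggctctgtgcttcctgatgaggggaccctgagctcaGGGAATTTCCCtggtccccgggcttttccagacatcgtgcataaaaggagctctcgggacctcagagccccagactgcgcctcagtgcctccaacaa
Cxcl10: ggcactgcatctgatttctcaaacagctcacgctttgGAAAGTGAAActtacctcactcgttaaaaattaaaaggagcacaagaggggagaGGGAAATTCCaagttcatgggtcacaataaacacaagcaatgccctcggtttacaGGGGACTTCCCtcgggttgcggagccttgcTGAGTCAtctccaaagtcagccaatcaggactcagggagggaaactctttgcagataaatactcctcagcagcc
Ccl9: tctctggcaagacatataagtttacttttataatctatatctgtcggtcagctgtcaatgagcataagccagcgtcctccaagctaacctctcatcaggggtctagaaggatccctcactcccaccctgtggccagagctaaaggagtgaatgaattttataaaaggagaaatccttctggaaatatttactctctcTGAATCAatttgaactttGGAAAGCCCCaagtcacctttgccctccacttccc
Ccl22: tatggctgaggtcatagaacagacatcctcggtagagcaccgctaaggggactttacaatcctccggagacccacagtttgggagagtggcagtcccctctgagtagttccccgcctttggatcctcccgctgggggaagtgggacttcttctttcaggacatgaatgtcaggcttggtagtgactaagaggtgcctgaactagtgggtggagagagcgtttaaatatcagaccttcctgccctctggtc

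In the Cxcl2 window the capitals cover overlapping NF-kappaB matches from position -97 to position -87 relative to the start. In the Cxcl10 window they cover, from left to right, the interferon element, an NF-kappaB match, a pair of overlapping NF-kappaB matches and the AP-1 site, and in the Ccl9 window the AP-1 site comes before the NF-kappaB match. Since DNMT3A methylates cytosines in CG pairs, these were counted as well. There were 9 CG pairs in the Cxcl2 window, 6 in Ccl22, 5 in Cxcl10, 3 in Ccl17, 2 each in Ccl3, Ccl6 and Ccl9, and 1 in Pf4, against a median of 6 over all windows. DNA methylation was not measured in these data.

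Ratios between chemokines within a library do not depend on how libraries are scaled. Of the 36 ratios between the 9 tested genes, 30 did not overlap between genotypes. The share among ratios of other genes was not computed, and single genes alone did not overlap for 51.1% of those tested. The 36 ratios also reuse the same 9 genes, so the count is a description only. Those given here were picked after their values were seen. The Ccl4 to Ccl9 ratio was 1.17 and 1.2 in KO replicates 2 and 3, against 0.541, 0.311 and 0.515 in WT replicates 1, 2 and 3. Ccl2 to Ccl9 was 1.12 and 1.15 in the KO libraries, against 0.636, 0.487 and 0.569 in the WT libraries. Ccl4 and Ccl2 thus exceeded Ccl9 in both KO libraries and stayed under it in all WT libraries. The Ccl3 to Ccl4 ratio was 1.33 and 1.63 in the KO libraries, against 1.93, 2.64 and 2.38 in the WT libraries. The Ccl17 to Pf4 ratio, between a pair of genes that both fell, overlapped: it was 0.125 and 0.0764 in the KO libraries, against 0.104, 0.116 and 0.139 in the WT libraries.

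Of 28 other mouse chemokine genes listed, 17 had a row and 9 were tested, of which 1 rose and 2 fell, with a median log2 change of -0.29. A count of 3 in 9 is close to the 22.1% called among all tested genes. Without WT replicate 2 only 1 of the 9 passed. Ccl7, a monocyte attractant that lies next to Ccl2, rose by 0.54 ± 0.15 on the log2 scale (SE; limma adjusted p = 0.0456), with 123 and 94.0 FPKM in KO replicates 2 and 3, against 63.1, 74.7 and 85.2 FPKM in WT replicates 1, 2 and 3. That call was lost in 6 of 16 alternatives (limma adjusted p = 0.0693 to 0.174), and without KO replicate 2 the log2 change was 0.34. Ccl12, another CCR2 ligand of the same cluster, fell by 0.81 ± 0.18 on the log2 scale (SE; limma adjusted p = 0.0185). It had 10.4 and 8.68 FPKM in KO libraries, against 13.3, 19.7 and 20.2 FPKM in WT libraries. Its call was lost with sex as a covariate (-0.44, 0.10) and without WT replicate 2, WT replicate 3 or KO replicate 3 (0.0536 to 0.109). Cxcl16, a membrane-bound chemokine and scavenger receptor of macrophages, fell by 1.09 ± 0.20 on the log2 scale (SE; limma adjusted p = 0.00880).

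The other 6 tested chemokines did not pass: Ccl5 (log2 change 0.35, limma adjusted p = 0.493), Ccl25 (-0.01, 0.982), Cxcl3 (0.32, 0.620), Ppbp (-0.29, 0.520), Ccl8 (-1.14, 0.402) and the eosinophil attractant Ccl24 (-0.72, 0.455). For Ccl8, the KO libraries had 9.53 and 7.15 FPKM, against 3.96 FPKM in the male WT replicate 1 and 49.8 and 32.8 FPKM in the female WT replicates 2 and 3. Ccl24 was at 63.6 and 26.7 FPKM in KO libraries, against 27.8 FPKM in WT replicate 1 and 104 and 111 FPKM in WT replicates 2 and 3. Without WT replicate 1 both passed as lower in KO (-2.16, limma adjusted p = 0.00136, and -1.35, 0.0388), and with sex as a covariate both log2 changes were positive (0.90, 0.0745, and 0.56, 0.465). For these 2 genes sex, or whatever else sets WT replicate 1 apart, cannot be told apart from genotype.

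**Figure D2:**
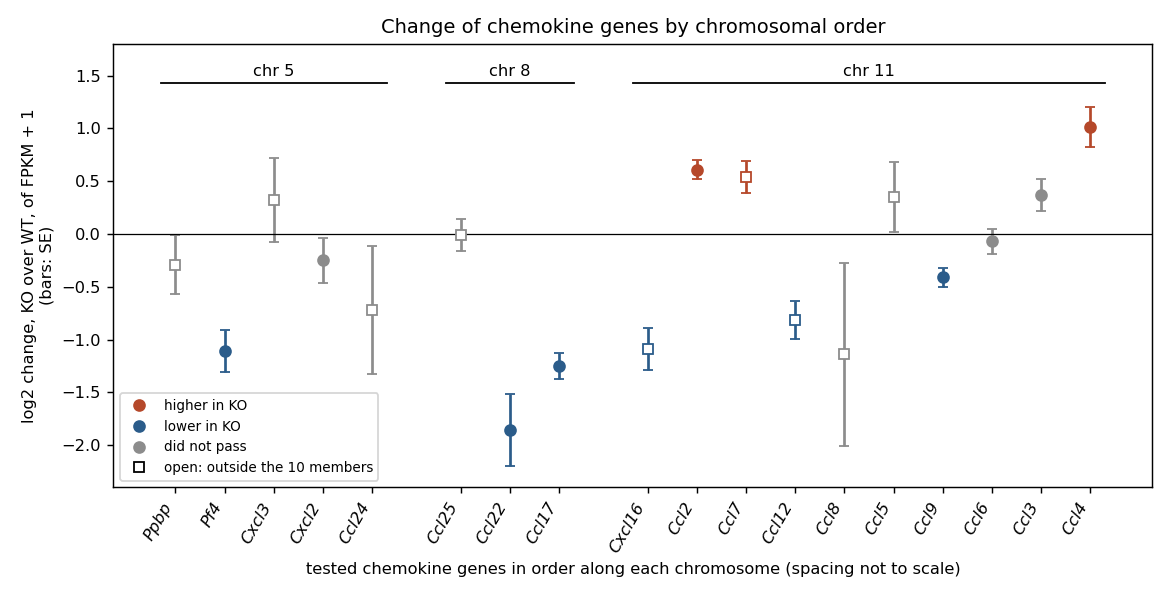
Log2 change, KO over WT, of FPKM + 1 with its SE for the 18 tested chemokine genes in their order along chromosomes 5, 8 and 11 (filled circles, genes of the set of 10; open squares, other chemokines; red, higher in KO; blue, lower; grey, did not pass). On chromosome 11 Ccl2, Ccl7 and Ccl4 rose while Cxcl16, Ccl12 and Ccl9 fell, and on chromosome 8 Ccl22 and Ccl17 fell.

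Of 11 tested chemokine receptors, 2 were called higher and 4 lower, against 9.08% and 13% of all tested genes, with a median log2 change of 0.12. Ccr2, the receptor for Ccl2, fell: it had 69.0 and 63.1 FPKM in KO replicates 2 and 3, against 125.5, 124 and 118 FPKM in WT replicates 1, 2 and 3 (log2 change -0.88 ± 0.08 SE; limma adjusted p = 0.000473). The ligand Ccl2 and its receptor Ccr2 thus moved in opposite directions. Ccr7, the homing receptor of mature dendritic cells (-1.13, limma adjusted p = 0.00898), and Cxcr4 (-0.38, 0.0206) also fell. Cx3cr1 (1.41, limma adjusted p = 0.000321) and the eosinophil and mast cell receptor Ccr3 (1.00, 0.0264) rose. Ccr1, which binds Ccl3, Ccl6 and Ccl9, did not pass (0.12, limma adjusted p = 0.277), nor did Cxcr2 (-0.07, 0.580), Cxcr1 (0.89, 0.0702), Ccrl2 (0.22, 0.426) or Ackr1 (0.40, 0.394). Ccr4, for Ccl17 and Ccl22, was at 0.05 and 0 FPKM in the KO libraries and 0.11 to 0.14 FPKM in the WT libraries, and was not tested. With a pseudocount of 0.1 the log2 change of Ccr7 was -1.82. The call of Cxcr4 was lost in 7 of 16 alternatives (0.0510 to 0.0917) and that of Ccr3 in 3 (0.0515 to 0.157).

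Among 11 tested genes of NF-kappaB and its feedback, 2 rose and 2 fell, against 9.08% and 13% of all tested genes, with a median log2 change of -0.04, that of all genes. Nfkbiz (1.29 ± 0.23 SE, limma adjusted p = 0.00800) and the inhibitor gene Nfkbie (0.50 ± 0.13, 0.0319) rose. The inhibitor gene Nfkbia (-0.76 ± 0.09, 0.00122) and Bcl3 (-1.39 ± 0.13, 0.000586), which acts with p50 and p52, fell. With sex as a covariate 3 of the 11 passed, all lower: the calls of Nfkbiz (0.0649) and Nfkbie (0.228) were lost, and Nfkbie lost its call in 4 further alternatives (0.0540 to 0.136), with a log2 change of 0.32 without KO replicate 3. In the interferon list that goes with Cxcl10, 1 of 9 tested genes rose and 4 fell, against the same shares of all genes, with a median log2 change of -0.38. Irf7 (-0.67, limma adjusted p = 0.00586), Ifit2 (-0.83, 0.0106), Isg15 (-0.66, 0.0234) and Irf1 (-0.39, 0.0249) fell and Usp18 rose (0.65, 0.0164). Stat2 (-0.16, 0.419), Irf9 (-0.18, 0.300) and Cmpk2 (-0.38, 0.0831) did not pass. With sex as a covariate 2 of the 9 passed, Irf7 and Ifit2, and 3 passed without WT replicate 2 or without KO replicate 3. Ifit2 was low, at 0.4 and 0.59 FPKM in KO libraries, against 2.01, 1.52 and 1.44 FPKM in WT libraries. Only its WT values took it past the filter on low genes, so the size of its fall is uncertain. With a pseudocount of 0.1 the log2 change of Ifit2 was -1.57. The call of Irf1 was also lost in 7 other alternatives (0.0505 to 0.0947), that of Isg15 in 2 (0.0729 and 0.0824) and that of Usp18 without KO replicate 3 (0.0891).

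Genes of the response to interleukin 4, a setting in which macrophages make Ccl17 and Ccl22, changed in both directions. Of 11 tested, 6 fell and 3 rose, against 13% and 9.08% of all tested genes, with a median log2 change of -0.72. The lectin genes Mgl2 (-2.86 ± 0.29 SE, limma adjusted p = 0.000782), Mrc1 (-1.77 ± 0.19, 0.00101) and Clec10a (-1.34 ± 0.19, 0.00308) fell, as did Chil3 (-1.49, 0.00164), Irf4 (-0.72, 0.0130) and Stat6 (-0.33, 0.0420). The receptor subunit gene Il4ra (1.02 ± 0.11, 0.00104) and the feedback inhibitors of cytokine signalling Cish (0.87 ± 0.10, 0.00110) and Socs1 (0.71 ± 0.08, 0.00130), which respond to IL3 too, rose. Arg1 (-0.47, limma adjusted p = 0.628) and Retnla (-0.77, 0.551) did not pass. Both were lower in the male WT replicate 1 (43.2 and 42.9 FPKM) than in WT replicates 2 and 3 (164 to 290 FPKM). Stat6 lost its call in 11 of 16 alternatives (0.0542 to 0.163), with a log2 change of -0.20 without KO replicate 2, and Irf4 without KO replicate 3 (0.0654). Irf4 was low, at 0.64 and 0.51 FPKM in KO libraries, against 1.84, 1.46 and 1.48 FPKM in WT libraries. Only its WT values took it past the filter on low genes, so the size of its fall is uncertain. The log2 change of Irf4 was -1.33 with a pseudocount of 0.1.

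**Figure D3:**
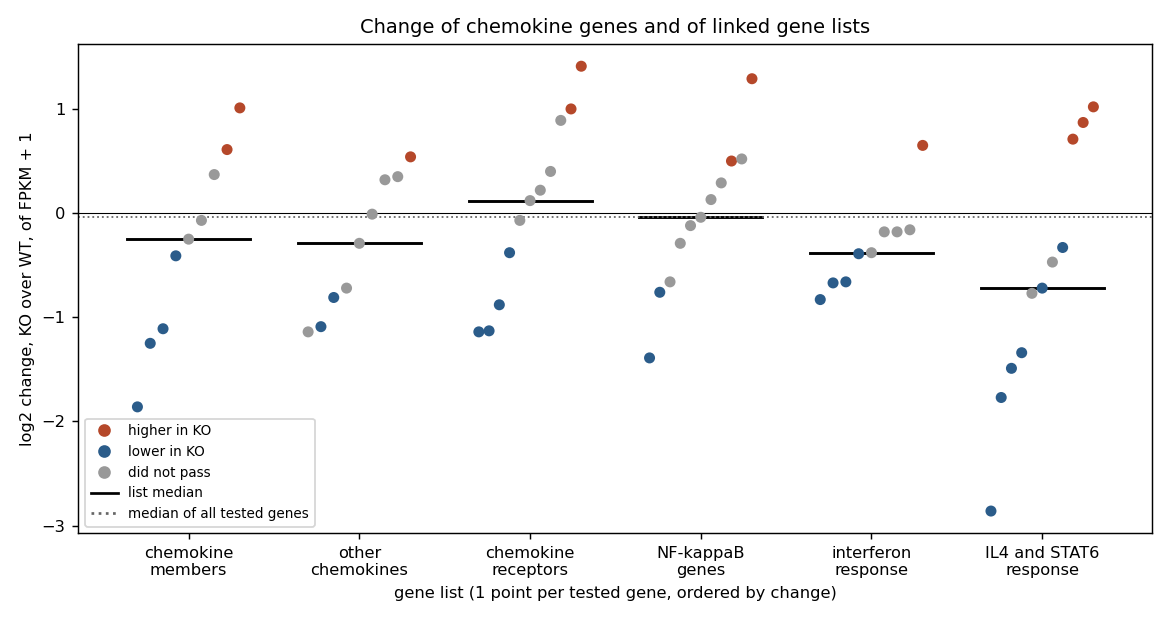
Log2 change, KO over WT, of FPKM + 1 for each tested gene of 6 lists (red, higher in KO; blue, lower; grey, did not pass), with list medians as black lines and the median of all tested genes, -0.04, as a dotted line. The median was -0.25 for the 10 chemokines' tested genes, 0.12 for receptors and -0.72 for the interleukin 4 list.

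Markers of several cell types that make chemokines moved with genotype. For the counts below, 9.08% of all tested genes were called higher and 13% lower. In bulk RNA, fewer cells of a type and less RNA per cell cannot be told apart. Of 12 monocyte and macrophage markers 10 fell and none rose. Adgre1 (log2 change -0.05) and Ly6c2 (-0.04) did not pass. The summed level of the 12 was 2789.8 and 2596 FPKM in KO libraries, against 6197 to 8059 FPKM in WT libraries. Lyz2 was the largest part of it, at 1587 and 1311 FPKM in KO libraries and 4522.5 to 6477 FPKM in WT libraries. None of the 12 was at 0. Csf1r, the receptor that defines the lineage, was at 30.8 and 25.4 FPKM in KO libraries and 90.7 to 105 FPKM in WT libraries. All 6 tested of 10 dendritic cell markers fell. The 10 summed to 114 and 52.4 FPKM in KO libraries, against 555 to 741 FPKM in WT libraries. H2-Aa and H2-Ab1 gave most of these sums. H2-Aa was at 53.15 and 20.93 FPKM in KO libraries and 286 to 402 FPKM in WT libraries. H2-Ab1 was at 46.9 and 21.97 FPKM in KO libraries and 221 to 302 FPKM in WT libraries. Ciita was at 0.57 and 0.29 FPKM in KO libraries and 3.38 to 3.94 FPKM in WT libraries. Only its WT values took it past the filter. Flt3, Zbtb46, Cd209a and Clec9a were at most 0.57 FPKM in any library. Of 10 mast cell markers 8 rose and none fell, while Cma1 (log2 change 0.35) and Mcpt4 (0.34) did not pass. The 10 summed to 31998 and 27803 FPKM in KO libraries, against 11564 to 13285 FPKM in WT libraries. Cpa3 was the largest part, at 19655 and 17551 FPKM in KO libraries and 6554 to 7576 FPKM in WT libraries. Neutrophil markers fell (8 of 9 tested), with sums of 10310 and 7614 FPKM in KO libraries, against 13472 to 20180 FPKM in WT libraries. Of 5 basophil markers 2 rose and of 5 eosinophil markers 1 rose, with none lower. The basophil calls were Cd200r3 (log2 change 1.01) and Gzmb (1.27), while Mcpt8 (-0.22), Prss34 (-0.06) and Itga2 (0.19) did not pass. The eosinophil count rests on Ccr3 alone, while Prg2 (0.40), Il5ra (0.42), Epx (-0.06) and Siglecf (0.02) did not pass. A shift of that cell type was not tested. The part of these shifts in the chemokine changes was not tested.

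Within each library the chemokines were also set against Csf1r, which fell, and against the mast cell receptor gene Kit, which rose, both picked after their values were seen. The direction depended on the marker. Per Csf1r, all of the set but Ccl22 and Cxcl10 were higher in both KO libraries than in every WT library, and per Kit, all but Ccl4 were lower. A gene with an unchanged level would also be higher per Csf1r and lower per Kit, so these counts follow largely from the markers. The share over all genes was not computed. Ccl2 per Kit was 2.69 and 2.15 in KO replicates 2 and 3, against 3.88, 3.62 and 3.53 in WT replicates 1, 2 and 3. Ccl4 per Kit overlapped, at 2.82 and 2.24 in KO libraries, against 3.30, 2.31 and 3.20 in WT libraries. Ccl6 per Kit was 23.8 and 20.2 in KO libraries, against 47.8, 61.1 and 53.5 in WT libraries. Ccl4 per Csf1r was 16.4 and 18.5 in KO replicates 2 and 3, against 2.64, 1.79 and 3.09 in WT replicates 1, 2 and 3, and Ccl6 per Csf1r was 139 and 168 in KO libraries, against 38.3, 47.2 and 51.7 in WT libraries. Ccl17 per Csf1r was 0.171 and 0.170 in KO libraries, against 0.136, 0.119 and 0.131 in WT libraries, so Ccl17 fell somewhat less than Csf1r. Ccl22 per Csf1r overlapped, at 0.131 and 0.0378 in KO libraries, against 0.0937, 0.104 and 0.121 in WT libraries. Pf4 per Csf1r was 1.37 and 2.22 in KO libraries, against 1.30, 1.03 and 0.940 in WT libraries. Among megakaryocyte and platelet markers, for which Pf4 is known, Itga2b (log2 change 0.57) and Gp1ba (0.85) rose, Vwf (-0.49) fell, and Gp9, Treml1 and Ppbp did not pass. Their summed level was 275 and 352 FPKM in KO libraries, against 210 to 238 FPKM in WT libraries. Itga2b gave most of that sum, at 228 and 275 FPKM in KO libraries and 159 to 181 FPKM in WT libraries. The sum therefore mainly follows Itga2b and does not show a rise of the other markers. Gp1bb and Gp6 were too low to be tested.

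**Figure D4:**
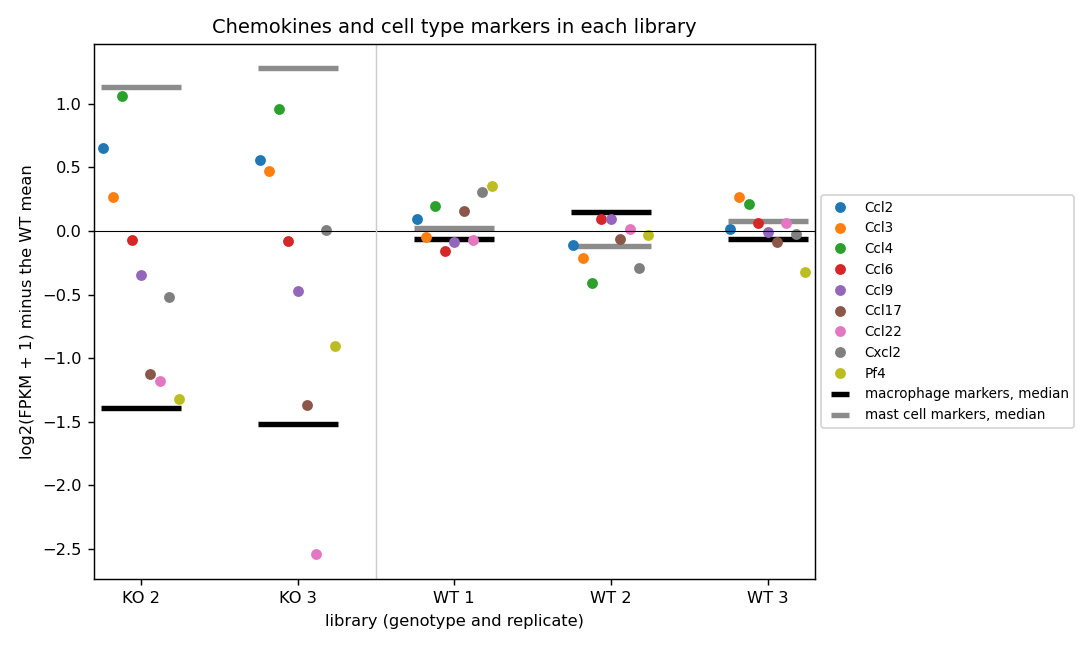
Log2(FPKM + 1) minus the WT mean in each library for the 9 tested chemokines (points), with the median of the macrophage markers (black bars) and of the mast cell markers (grey bars). In the KO libraries the macrophage median was at -1.39 and -1.52 and the mast cell median at 1.13 and 1.28. Ccl4 was nearest the mast cell median, and Ccl17 and Pf4 were nearer that of the macrophage markers. Ccl22 was at -1.18 in KO replicate 2 and at -2.54, far below the macrophage median, in KO replicate 3.

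By root mean square distance over the 5 libraries on the log2(FPKM + 1) scale, the profiles most like that of Ccl4 belonged to an unnamed gene model (distance 0.0886), Smim24 (0.101) and Csf2, which encodes the cytokine GM-CSF (0.117). Csf2 was low, at 2.01 and 2.28 FPKM in KO libraries, against 0.81, 0.35 and 0.96 FPKM in WT libraries. Nearest to Ccl22 were Aif1, a gene of macrophages (0.128), Slamf9 (0.174) and Bcl2a1d, of the BCL2 family (0.216). In the authors' deposited table, 2 of the 10 chemokines had an adjusted p under 0.05, Ccl17 (1.6e-11) and Ccl22 (0.000713). The other 4 genes called here were not under it: the authors' deposited table gave 0.0684 for Ccl4, 0.119 for Pf4, 0.353 for Ccl2 and 0.815 for Ccl9. Their signed folds in the authors' deposited table, KO over WT, were 1.98, -2.21, 1.52 and -1.33 in that order.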

How the data were processed

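FPKM per gene and library were deposited by the authors, a column for each library, and are given to 2 decimals. Per the submitters' processing notes, HISAT, StringTie 1.2.1 and edgeR were used with build mm10; which step each served, the annotation and the strand setting were not stated there. FPKM carry no read totals, so counting error is unknown (sums 560387 to 604368 per library). The authors also deposited a signed fold (a score), p-values and adjusted p-values, and a log fold change, also a score, that is not used here.

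Values were analysed as log2(FPKM + 1) with limma 3.58.1 in R 4.3.3 (genotype as the only term, mean-variance trend, 3 residual degrees of freedom). Genes with at least 2 libraries at 1 FPKM were tested, with Benjamini-Hochberg adjustment across them all. The procedure was tested on simulated data. The chemokines and gene lists were chosen with earlier results of these data known. Every chemokine of the set is named; of each other list, genes that passed are named, and the rest where they were 6 or fewer; a few genes counted in the lists are not reported here by name. Likeness was sought for the chemokines with the largest fitted rise and fall, 3 genes each. Alternatives were pseudocounts, filters, scalings, moderation, sex, a replicate block and leaving out each library. Nothing in the labels states that the replicates were separate animals or cultures, so p-values reflect only the scatter of these libraries, which could be technical. An exact two-sided permutation test of 2 against 3 libraries cannot reach the threshold and was not used. Gene positions and promoters are from RefSeq GRCm38.p6, the build that mm10 names.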

Additional observations from a re-analysis of the deposited data

How the results depend on the processing

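Of 16 alternatives, sex as a covariate moved most: it called 1312 genes, 3 of the 9 tested chemokines and 2 interferon genes. Leaving out 1 library gave 1598 (without WT replicate 2) to 2725 genes called, 5 to 6 chemokines, 1 to 4 other chemokines and 3 to 4 interferon genes, and a median log2 change of the chemokines between -0.36 and -0.08 (without KO replicate 2). Other chemokines were fewest without WT replicate 2, and interferon genes without WT replicate 2 or KO replicate 3. The stricter filter left 3 interferon genes called. The fall of Dnmt3a passed throughout (-1.48 to -0.95).

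The log2 changes that turned sign were all of genes that had not passed. Under upper-quartile scaling these were Ccl6 (0.01), Cxcr2 (0.01) and Ccl25 (0.04); under median-of-ratios scaling Ccl25 (0.02); under quantile normalization Ccl25 (0.02) and Cxcr2 (0.02). With sex as a covariate they were Ccl6 (0.08), Ccl5 (-0.14), Ccl8 (0.90), Ccl24 (0.56), Ccl25 (0.03), Cxcl3 (-0.49), Arg1 (0.90) and Retnla (0.93). Leaving out 1 library at a time gave ranges that crossed 0 for Cxcl2 (-0.52 to 0.01), Ppbp (-0.76 to 0.19), Ccl5 (-0.05 to 0.76), Ackr1 (-0.12 to 0.91), Ccl25 (-0.12 to 0.11), Cxcl3 (-0.02 to 0.73), Ccrl2 (-0.07 to 0.51) and Retnla (-1.62 to 0.02). The cause was not tested.

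Replicate numbers 2 and 3 occur in both genotypes, and the deviations of same-numbered libraries correlated at only -0.0292 and 0.0985. With 2 KO libraries their deviations are exact opposites, so these values are not separate checks. They cannot settle whether the numbers mark pairs, and the main fit did not pair the libraries. With the replicate block 2058 genes and 6 of the 9 chemokines were called, and the chemokine median was -0.15. WT replicate 1 is the only library with that number, so this fit takes it out of the contrast. Its log2 changes are therefore those found without WT replicate 1, and the 2 settings are not independent. Ccl8 (-2.16), Ccl24 (-1.35), Arg1 (-1.16), Retnla (-1.62) and Cxcr1 (1.10) passed only with that block or, but for Retnla, without WT replicate 1. Unknown depth limits the low genes most, Cxcl10 and Ccl22 among these.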
